A study of Nothobranchius furzeri with 20 samples.

Results

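The genes described here are those whose liver level was lower at each successive age in male turquoise killifish (Nothobranchius furzeri) of the GRZ strain. The rule was met by only 3 of 12730 eligible genes, out of 26739 gene identifiers in the count table. They are Nfu_g_1_026130, Nfu_g_1_020449 and Nfu_g_1_020192. RNA-seq had been made from liver in 20 libraries, taken here as 1 fish each, with 5 at 5, 7, 10 and 14 weeks of age, to compare liver expression between ages. All fish were males of 1 strain, no treatment is named in the labels, and age is the only difference between the groups that the labels give. Each gene's read count was divided by the library's total and multiplied by 1000000 to give CPM, the usual depth-scaled count, and the level was taken as log2(CPM + 0.5). A gene was eligible if its highest age median reached 2 CPM and it was not among the 100 most abundant genes. It was a member if the median of the 5 fish was lower by at least 0.4 log2 units, which is 1.32-fold, at each of the 3 steps from 5 to 7, 7 to 10 and 10 to 14 weeks. The limit of 150 members did not come into play. The rule used the values of all 20 fish, so the age differences of the members are a description and are given without a test of their own.

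The turquoise killifish lives in seasonal ponds in Africa, grows and matures within weeks, and shows signs of ageing within months. GRZ is an inbred line with a short life. The liver makes plasma proteins, stores and releases fuel and clears toxins, and its RNA is a mixture from hepatocytes, vessel, bile duct, blood and immune cells. In such bulk RNA, fewer cells of a type and less RNA per cell cannot be told apart. The identifiers are not paired with gene names or functions in the sources used here, so no role can be given for any gene, and the tissue label could not be checked against liver markers.

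Total counts per library ran from 22529235 to 42886761, and fish numbers serve as names that are not shared between ages. The titles carry a different number for each library, but whether each is a separate animal is not stated outright. The p-values therefore refer only to variation among these libraries, which may in part be technical. Over eligible genes the median SD of the log2 level was 0.47, 0.28, 0.36 and 0.38 at 5, 7, 10 and 14 weeks.

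The members came to the same rule by unlike routes. Nfu_g_1_026130 lost most of its level before 7 weeks and was close to undetected at 14 weeks. Nfu_g_1_020449 and Nfu_g_1_020192 stepped down more evenly by their medians, but 1 of the 5 fish at 14 weeks stood far above the others in both genes. For these 2 genes the description as falling at every step holds for medians and not for mean CPM, which was higher at 14 than at 10 weeks in both. Nfu_g_1_020192 even had a higher mean CPM at 14 than at 5 weeks.

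**Figure D1:**
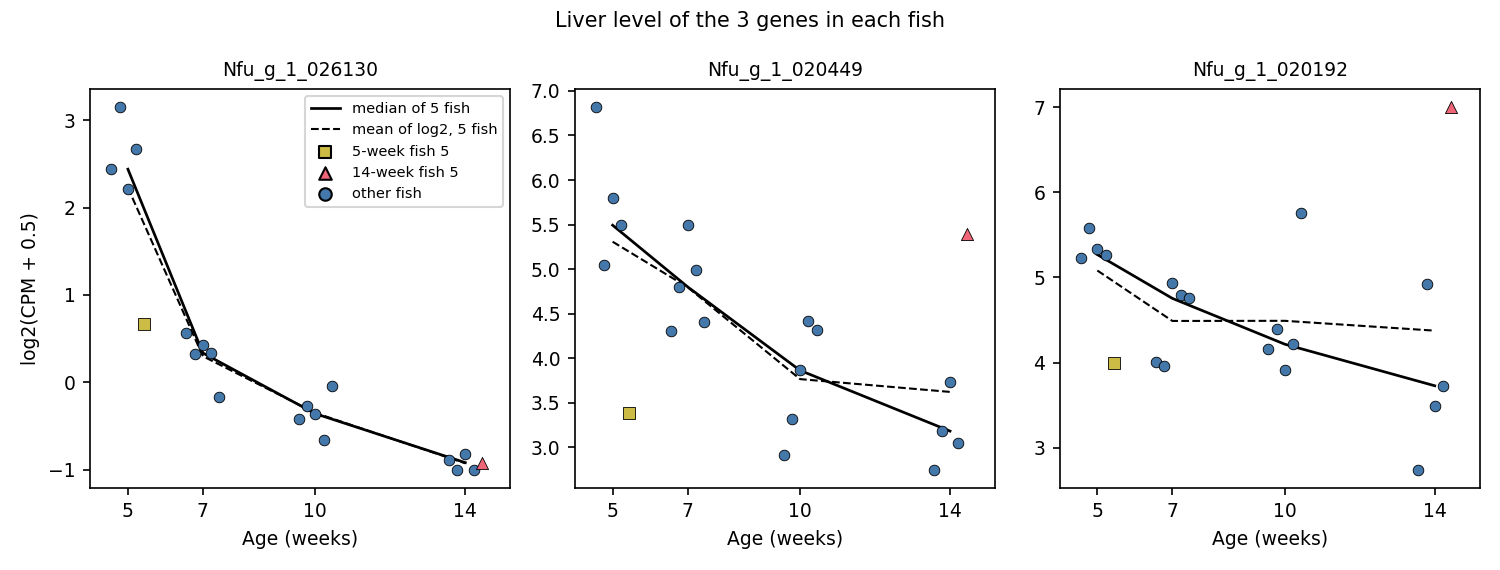
Level of each of the 3 genes, as log2(CPM + 0.5), in the 20 fish against age in weeks. Points are fish, set side by side within an age, the solid line joins medians and the dashed line joins means of the log2 values. In the middle and right panels 14-week fish 5 (triangle) lies far above the other 14-week fish, and 5-week fish 5 (square) is the lowest 5-week fish in all 3 panels.

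Nfu_g_1_026130 had the widest descent of the 3 genes. At 5 weeks it stood at 4.93, 8.38, 4.15, 5.85 and 1.09 CPM in fish 1 to 5. At 7 weeks the values were 0.977, 0.754, 0.850, 0.762 and 0.393 CPM. Every 5-week fish was above every 7-week fish, although 5-week fish 5 exceeded the highest 7-week fish by little. At 10 weeks the values were 0.250, 0.329, 0.280, 0.132 and 0.471 CPM, and of the 25 possible pairs of a 7-week and a 10-week fish the older was lower in 24. At 14 weeks the gene had 1, 0, 2, 0 and 1 reads in fish 1 to 5, all under the 3 reads that a count of 0 still allows (0.0864 to 0.121 CPM in these libraries). The 10-week fish had 4 to 14 reads, so all 5 lay above all 5 fish of 14 weeks, though the nearest had only 4 and 2 reads. The share of all genes so separated between neighbouring ages is not given here. The rule also asked for each step, so nothing is read from these separations.

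The mean level of Nfu_g_1_026130 was 4.88 ± 2.65, 0.747 ± 0.217 and 0.292 ± 0.123 CPM at the first 3 ages (SD, n = 5 each). Summed over the 5 fish, 669 reads at 5 weeks gave 4.93 CPM with an exact 95% Poisson interval of 4.56 to 5.32. The 4 reads at 14 weeks gave 0.0271 CPM, with an interval of 0.00740 to 0.0695. These intervals cover counting error only and leave out the spread between fish. The gene was chosen for its descent on these same reads, so the gap between the intervals is no test. By medians, the step from 5 to 7 weeks was 2.10 log2 units, or 62.6% of the whole descent of 3.36. The later steps were 0.69 and 0.56 log2 units. Since the groups span 2, 3 and 4 weeks, this is 1.05 log2 units per week, then 0.23 and 0.14. The median was 0.762 CPM at 7 weeks and 0.280 CPM at 10 weeks, so the added 0.5 CPM shrank both later steps. At 10 and 14 weeks that constant outweighed the reads. The share of 62.6%, the weekly rates and the slowing they show thus reflect the constant as well as the counts. The edgeR fit described below, which does not use it, gave -2.68, -1.31 and -3.26 in the same order, with a limit on the last value given there. With 1 CPM added in place of 0.5 the gene no longer met the rule.

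**Figure D2:**
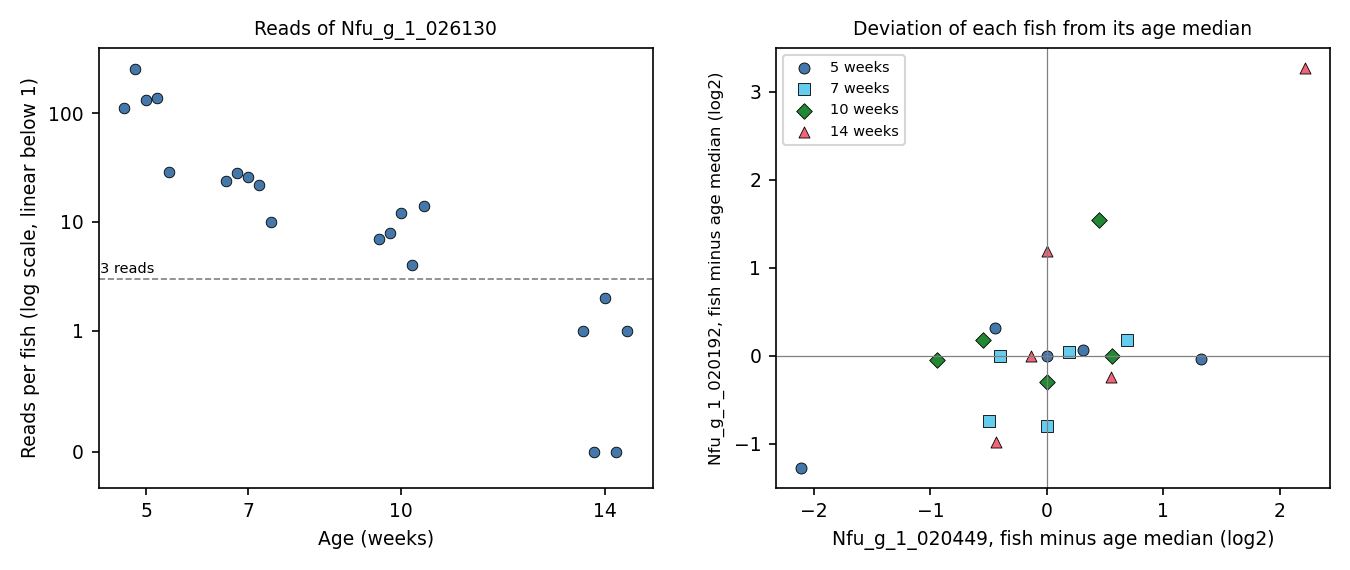
Left: reads of Nfu_g_1_026130 in each fish against age in weeks, on an axis that is logarithmic above 1 and linear below, with the bound of 3 reads dashed. All 14-week fish have 0 to 2 reads. Right: level of each fish minus its age median, in log2 units, for Nfu_g_1_020449 (horizontal) and Nfu_g_1_020192 (vertical). The single point at the upper right is 14-week fish 5, and the one at the lower left is 5-week fish 5.

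Nfu_g_1_020449 had the largest smallest step of the 3 genes by medians, 0.68 log2 units. At 5 weeks it stood at 112, 32.5, 55.2, 44.5 and 9.93 CPM in fish 1 to 5. At 7 weeks the values were 19.2, 27.4, 44.5, 31.2 and 20.7 CPM. The 5-week fish thus enclosed the whole range of the 7-week fish, with fish 5 below all of them. At 10 weeks the values were 7.06, 9.45, 14.1, 20.9 and 19.4 CPM. At 14 weeks they were 6.23, 8.58, 12.8, 7.76 and 41.6 CPM, with 4 fish within or below the 10-week range and fish 5 among the higher 7-week values.

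From the youngest to the oldest group, the mean of Nfu_g_1_020449 was 50.9 ± 38.2, 28.6 ± 10.2, 14.2 ± 6.04 and 15.4 ± 14.9 CPM (SD, n = 5 each). Without 14-week fish 5 the 14-week mean was 8.85 ± 2.83 CPM (SD, n = 4). The median steps were 0.69, 0.94 and 0.68 log2 units, and the 5-week median was 5.19-fold the 14-week median. On means of the log2 level the last step was 0.14, against 0.51 and 1.03 for the first and the second. No neighbouring ages were free of overlap. The older fish was the lower in 19 of 25 pairs from 5 to 7 weeks, 22 from 7 to 10 weeks and 16 from 10 to 14 weeks.

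Nfu_g_1_020192 had the shallowest descent, 1.54 log2 units between the medians of 5 and 14 weeks, or 2.98-fold in CPM. At 5 weeks it stood at 37.1, 47.4, 39.7, 38.0 and 15.4 CPM in fish 1 to 5, so that 4 fish lay close together and fish 5 apart. At 7 weeks the values were 15.6, 15.0, 30.0, 27.2 and 26.5 CPM, in a lower pair and a higher trio. At 10 weeks they were 17.4, 20.6, 14.6, 18.1 and 53.6 CPM, with 4 fish close together and fish 5 above every 5-week fish. At 14 weeks they were 6.19, 29.7, 10.7, 12.7 and 128 CPM. The value of 14-week fish 5 was the highest of all 20 fish, and that of 14-week fish 1 the lowest.

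Means of Nfu_g_1_020192 by age, youngest first, were 35.5 ± 11.9, 22.9 ± 7.04, 24.8 ± 16.2 and 37.4 ± 51.2 CPM (SD, n = 5 each). Leaving out fish 5 gave 17.7 ± 2.45 CPM at 10 weeks and 14.8 ± 10.3 CPM at 14 weeks (SD, n = 4 each). The median steps of 0.51, 0.54 and 0.49 log2 units all lay near the threshold. On means of the log2 level the step from 7 to 10 weeks was -0.0016, that is no descent, and the last step was 0.12. The older fish was the lower in 21 of 25 pairs from 5 to 7 weeks, in 14 from 7 to 10 weeks and in 16 from 10 to 14 weeks. The fish of neighbouring ages overlapped at each step.

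**Figure D3:**
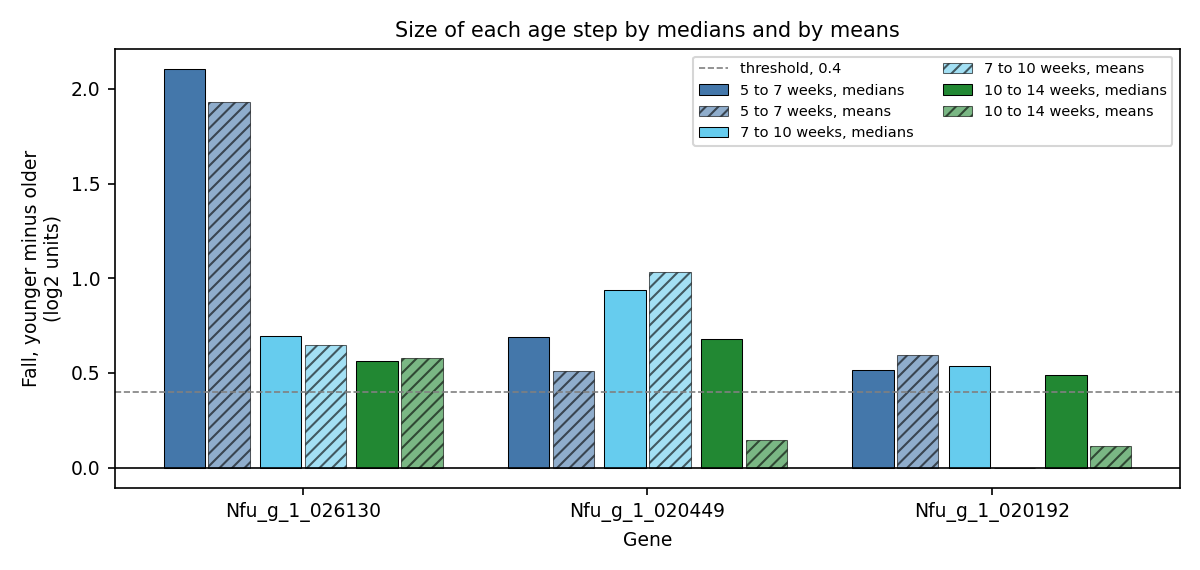
Fall at each age step (younger minus older, log2 units) for the 3 genes, from age medians (plain bars) and from age means of log2(CPM + 0.5) (hatched bars), with the threshold of 0.4 dashed. For Nfu_g_1_026130 both measures are above the threshold at every step; for Nfu_g_1_020192 the 7 to 10 week fall by means is near 0.

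A fit over the whole table was made as a second description. It used edgeR's quasi-likelihood test on the counts with 1 mean per age, over 16475 genes, and genes were called at a Benjamini-Hochberg adjusted p under 0.05. From 5 to 7 weeks 1 of the 3 members was called lower, Nfu_g_1_026130, beside 11.5% of all tested genes. From 7 to 10 weeks the same gene was called lower, beside 15.7% of tested genes. Its adjusted p in this edgeR test was 0.0498, at the edge of the limit. That call was lost (0 members) in limma-voom, with DESeq2's size factors, without the filter on low counts, and when any of 14 fish was left out. Between 14 and 5 weeks 1 member, again Nfu_g_1_026130, was called lower, beside 2.65% of tested genes. The share of tested genes ran from 0.477% without 14-week fish 4 to 5.77% without 5-week fish 3. It was lower by over 1.5 times in 7 further cases, without fish 1 (1.71%) or fish 2 (1.37%) of 5 weeks, fish 1 or fish 4 of 7 weeks (1.66% each), fish 3 of 10 weeks (1.73%), and fish 1 (1.20%) or fish 3 (0.628%) of 14 weeks. From 5 to 7 weeks the share was lower by over 1.5 times without 5-week fish 4 (7.25%) or 7-week fish 1, 2 or 4 (6.86%, 6.55% and 6.42%). Because the members were chosen on these same values, nothing is read from these counts.

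From 10 to 14 weeks edgeR called 0 of the 3 members lower, and no tested gene either (0.0%). At an unadjusted p under 0.05, 1 member (Nfu_g_1_026130) and 480 of the tested genes were lower at 14 weeks. Without 14-week fish 5 this was 1141 genes, of which 6 were called, and without 14-week fish 3 it was 308; no member was called in either case (0 of 3). DESeq2 called 1 member, the same gene, and 11 genes lower in all, whereas limma-voom called 0 of each. Nfu_g_1_026130 had 4 to 14 reads per fish at 10 weeks and 0 to 2 at 14 weeks. With only the libraries of these ages it was removed by the filter on low counts. Its place among the tested genes thus rests on the reads of the younger fish. Nothing is read from its unadjusted p or its DESeq2 call for this step.

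The fitted differences, which follow mean counts, parted from the medians in the later steps. For Nfu_g_1_026130 the log2 difference was -2.68 (SE 0.47) from 5 to 7 weeks and -1.31 (SE 0.49) from 7 to 10 weeks. From 10 to 14 weeks it was -3.26 (SE 0.66). This value rests on 4 reads in all at 14 weeks, depends in part on the small constant edgeR adds to the counts, and is no bound. For Nfu_g_1_020449 the differences were -0.80 (SE 0.52), -0.99 (SE 0.52) and 0.13 (SE 0.52) in the same order. For Nfu_g_1_020192 they were -0.65 (SE 0.61), 0.18 (SE 0.61) and 0.56 (SE 0.61), so that only the first step was downward. None of the 6 values of the latter 2 genes was as large as 2 SE. That is a description only, since the genes were chosen on these same fish. Between 14 and 5 weeks Nfu_g_1_020449 differed by -1.66 (SE 0.53) and Nfu_g_1_020192 by 0.09 (SE 0.61).

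With 1 fish left out, the fitted 14 to 5 week difference of the latter 2 genes moved most for 14-week fish 5. Without that fish it was -2.46 for Nfu_g_1_020449, which was then also called, and -1.25 for Nfu_g_1_020192, which was not. Without 5-week fish 5 the values were -1.91, also called, and -0.09. DESeq2 called Nfu_g_1_020449 with all fish, at -1.61. Without 5-week fish 1, its highest fish at 112 CPM, the difference shrank to -1.27 in edgeR and was not called. With only the 10 libraries of these ages it was -1.63, also not called. As before, nothing is read from these calls. The median log2 difference of the 3 members was -0.80 from 5 to 7 weeks against -0.09 over all tested genes. It was -0.99 against 0.03 from 7 to 10 weeks, 0.13 against -0.00078 from 10 to 14 weeks, and -1.66 against -0.08 between 14 and 5 weeks. In each of these contrasts the middle member was Nfu_g_1_020449. The members were chosen for their descent in these fish, so nothing is read from the distance to all tested genes.

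Every 5-week fish was above every 14-week fish in 1 of the 3 members, Nfu_g_1_026130, and in 1.04% of tested genes. In Nfu_g_1_020449 the older fish was the lower in 22 of the 25 pairs of these ages, and in Nfu_g_1_020192 in 19. The exceptions in Nfu_g_1_020449 were all pairs with 5-week fish 5 or 14-week fish 5.

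The rule set no order among the fish of an age, but its medians rest on these same fish. The ranks in members are therefore a description, and the shares of eligible genes are no measure of chance for them. Fish 5 was the lowest of the 5-week fish in all 3 members, and in 18.1% of eligible genes. Relative to the age median its level was -1.77 log2 units in Nfu_g_1_026130, -2.11 in Nfu_g_1_020449 and -1.27 in Nfu_g_1_020192. The same fish was also the lowest of its age in Nfu_g_1_022937, just outside the rule, but not in Nfu_g_1_008225. It was the lowest in all 6 genes named below as most like a member, which were chosen by their likeness over these same fish. At 14 weeks fish 5 was the highest in 2 of the 3 members, and in 38.6% of eligible genes, more than any other fish of its age. It was also the lowest in 31.9% of eligible genes, again more than any other fish of its age. It lay 2.21 log2 units above the age median in Nfu_g_1_020449 and 3.27 in Nfu_g_1_020192. In Nfu_g_1_026130 it had 1 read, the middle value of its age. The part of library quality or of cell mixture in these values was not tested. The numbers do not link 5-week fish 5 to 14-week fish 5.

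The spread between fish differed between the members. At 14 weeks the SD of the log2 level was 1.66 in Nfu_g_1_020192 and 1.05 in Nfu_g_1_020449, above that of 99.0% and 95.8% of eligible genes. In Nfu_g_1_026130 it was 0.075, above 0.471%. With 0 to 2 reads per fish the added 0.5 CPM holds the log2 level nearly still, so that SD says little of the gene. At 5 weeks the SD was 1.26 in Nfu_g_1_020449, above 95.1% of eligible genes, 0.94 in Nfu_g_1_026130, above 88.0%, and 0.62 in Nfu_g_1_020192, above 68.5%. At 7 weeks, when eligible genes as a whole varied least, the SDs were 0.28, 0.48 and 0.47 for Nfu_g_1_026130, Nfu_g_1_020449 and Nfu_g_1_020192. At 10 weeks they were 0.22, 0.64 and 0.73 in the same order, with Nfu_g_1_026130 below 0.5 CPM in every fish.

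Gene length and abundance were not shared. The rule did not use length, but it used abundance through the age medians and through its limits on CPM. The lengths implied by the deposited RPKM table (a read count per unit of gene length and of library size) were 956 bp for Nfu_g_1_026130, 5432 bp for Nfu_g_1_020449 and 1681 bp for Nfu_g_1_020192. The quartiles over 12417 eligible genes with a length were 1473, 2872 and 4900 bp, so the members lay below, above and within the middle of the range. Per length, the 5-week medians were 5.15, 8.20 and 22.6 RPKM in that order, computed here from counts and each library's own total. At 14 weeks they were 0.0301, 1.58 and 7.58 RPKM, in the same order of genes. The first of these rests on a median of 1 read and is no measured level.

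The members were few beside the genes that met a single step. Of the eligible genes, 3174 (24.9%) were lower by at least 0.4 from 5 to 7 weeks, 3844 (30.2%) from 7 to 10 weeks and 1814 (14.2%) from 10 to 14 weeks. Only 147 (1.15%) met the first and the second of these, 427 (3.35%) the second and the third, and also 427 the first and the third. With the same thresholds turned round, 13 genes were higher at each successive age.

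**Figure D4:**
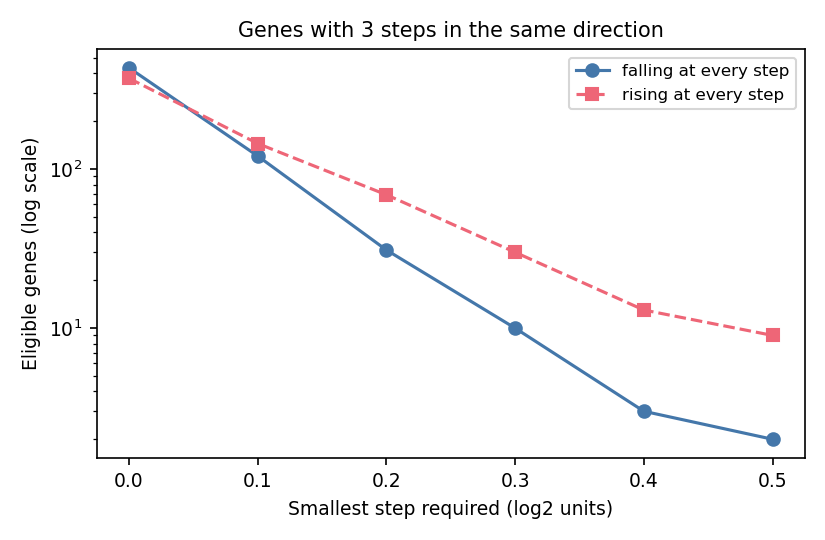
Number of eligible genes (log scale) whose 3 age steps all have the same direction, against the smallest step required in log2 units. Falling genes go from 434 with no minimum to 3 at 0.4 and 2 at 0.5; rising genes go from 373 to 13 and 9.

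The number of genes depended steeply on the step required. With no minimum step, 434 eligible genes had medians ordered downward over the 4 ages and 373 upward. At 0.1 there were 121 and 145, at 0.2 there were 31 and 69, and at 0.3 there were 10 and 30. The member nearest to the threshold was Nfu_g_1_020192, with a smallest step of 0.49, followed by Nfu_g_1_026130 with 0.56. Just outside lay Nfu_g_1_022937, whose steps were 0.73, 1.56 and 0.36, and Nfu_g_1_008225, with 1.01, 0.34 and 0.57. The 14-week median of Nfu_g_1_022937 was 0 CPM. Its last step of 0.36 was thus the largest that the added 0.5 CPM allowed from its 10-week median. For that step edgeR gave -3.89 (SE 0.94), which rests on 1 read in all at 14 weeks.

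Nfu_g_1_022937 resembled Nfu_g_1_026130 in ending with almost no reads. Its age medians were 2.65, 1.401, 0.143 and 0 CPM, and the 14-week fish had 1 read in all. Nfu_g_1_008225 was uneven, with medians of 5.05, 2.26, 1.68 and 0.964 CPM. Its 5-week fish ran from 0.343 to 16.8 CPM and its 7-week fish from 0.855 to 23.0 CPM, so the youngest ages overlapped over nearly their whole range. In the 14-week fish it lay between 0.627 and 1.15 CPM.

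The members were also compared with all other eligible genes by Pearson's r of the log2 level over the 20 fish, a measure of likeness chosen after the members were known. The values are descriptions, since the fish share libraries and ages and each pair is the highest of 12729. Nfu_g_1_026130 was most like Nfu_g_1_011463 (r = 0.87, Spearman's rho = 0.78) and Nfu_g_1_023228 (r = 0.87, rho = 0.80), and 12 genes reached an r of 0.8. Nfu_g_1_011463 had medians of 5.15, 0.864, 0.617 and 0.542 CPM at 5, 7, 10 and 14 weeks, which is the early loss without the later one. Nfu_g_1_023228 had 2.52, 0.982, 0.0713 and 0.0784 CPM. Its fish had 2 to 4 reads at 10 weeks and 1 to 10 at 14 weeks, with a median of 2 at both. At so few reads a further fall after 10 weeks could hardly be seen.

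Nfu_g_1_020449 was most like Nfu_g_1_014299 (r = 0.88, rho = 0.78) and Nfu_g_1_016128 (r = 0.87, rho = 0.86), and 32 genes reached an r of 0.8. These varied with it across fish over a narrower range, with medians from 15.9 CPM at 5 weeks to 11.6 at 14 weeks in Nfu_g_1_014299 and from 13.5 to 8.64 CPM in Nfu_g_1_016128. In both, 14-week fish 5 was the highest of its age, at 18.9 and 12.4 CPM. Both genes were chosen for likeness over these same fish, so nothing is read from that.

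Nfu_g_1_020192 was most like Nfu_g_1_012112 (r = 0.90, rho = 0.90) and Nfu_g_1_001358 (r = 0.89, rho = 0.80), and 8 genes reached an r of 0.8. The medians of Nfu_g_1_012112 were 98.5, 58.9, 52.6 and 41.7 CPM, also in descending order, with a smallest step of 0.16. In 14-week fish 5 it stood at 160 CPM and in 10-week fish 5 at 99.2 CPM, each the highest of its age as in Nfu_g_1_020192. Since Nfu_g_1_012112 was chosen for likeness over these same fish, nothing is read from that. Nfu_g_1_001358 stood at 61.0 CPM in 14-week fish 5, and its median was 42.0 CPM at 5 weeks and 25.5 at 14 weeks.

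Among themselves the members were less alike. Over the 20 fish r was 0.69 between Nfu_g_1_026130 and Nfu_g_1_020449, 0.65 between Nfu_g_1_020449 and Nfu_g_1_020192, and 0.37 between Nfu_g_1_026130 and Nfu_g_1_020192 (rho = 0.66, 0.69 and 0.42), with the age steps that the rule required contained in all of them.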

How the data were processed

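Liver RNA-seq in 20 libraries of male killifish, each taken as 1 fish, was analysed. The authors deposited whole-number read counts for each gene identifier. The submitters' processing notes name featureCounts 1.4.6-p4, STAR 2.4.1d and CASAVA 1.8.2. The build and annotation were not given in the sources used here. Per the labels, the kit was TruSeq RNA v2, which does not mark strand, so genes overlapping on opposite strands cannot be separated. Reads of near-identical genes may also not be separable, which does not depend on strand. The RPKM the authors deposited divide counts by length and by totals that run through a cycle of 25 numbers (residual SD of log2 values 9.92e-05 in 8372 genes, or 0.32 if column totals are used), and served only to derive lengths.

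None of the identifiers matched the 38438 genes of assembly NfurGRZ-RIMD1 (0 matches), so planned pathway and marker lists were not applied. The members and lists were chosen with earlier results of these data known.

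CPM used raw column totals. Counts were fitted in R 4.3.3 with edgeR 4.0.16 (TMM, filterByExpr, 1 mean per age, all 20 libraries), with limma 3.58.1 and DESeq2 1.42.0 as alternatives; the fit and the rule were tested on simulated data. The SE was taken from the fold change and the F statistic. The rule used the same counts and fish as these contrasts, so members' calls are given only as descriptions from which nothing is read. Genes were named by rule: all members and the 2 genes just outside the threshold; the 2 genes most like each member were added after seeing the data. Alternatives were other scalings, pseudocounts, thresholds, filters and each fish left out.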

Additional observations from a re-analysis of the deposited data

Results flagged for a closer look

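In groups of 5 fish, a fish was marked when its gap to the nearest other fish exceeded 0.71 of the group's range (Dixon's 95% critical value). Of 44 groups, from 11 named genes at 4 ages, 9 were marked. Chance marks about 1 in 20 independent groups, but CPM are skewed upward, as are all 9 marks. The genes were also chosen on these same fish, 6 of them for likeness to a member, so the groups are not independent. The number of marks is therefore not comparable with that rate. Among the members, 14-week fish 5 was far above its age in Nfu_g_1_020449 (41.6 CPM) and Nfu_g_1_020192 (128 CPM), and 10-week fish 5 in Nfu_g_1_020192 (53.6 CPM). Just outside the rule, 14-week fish 5 was marked in Nfu_g_1_022937 at 0.0288 CPM, which is its single read at that age, and 7-week fish 3 in Nfu_g_1_008225 at 23.0 CPM. Among the genes most like the members, 14-week fish 5 was marked in Nfu_g_1_001358 (61.0 CPM) and 14-week fish 1 in Nfu_g_1_011463 (1.65 CPM). Nfu_g_1_023228 was marked in 5-week fish 1 (6.84 CPM) and 7-week fish 1 (2.52 CPM).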

How the results depend on the processing

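The number of genes meeting the rule, 3 in the chosen setting, was 7 with a pseudocount of 0.1 and 10, 31, 121 and 434 with step thresholds of 0.3, 0.2, 0.1 and 0, the last 3 added after seeing the data. Leaving out 1 fish gave 2 to 17 genes, where 15, 15 and 17 belong to 5-week fish 3, 4 and 5. Dropping 5-week fish 5 together with 14-week fish 5, also added after seeing the data, gave 18 genes that included all 3 members. Medians of 4 fish average the middle pair, so these counts rest on another statistic as well as on fewer fish. Nfu_g_1_026130 and Nfu_g_1_020449 met the rule whichever of the 20 fish was left out, Nfu_g_1_020192 in 14 of 20 cases. With means in place of medians 4 genes met it, of which 1 was a member, Nfu_g_1_026130. With TMM-scaled CPM all 3 members met it. With a minimum of 5 CPM 2 genes met it, and Nfu_g_1_026130 was lost, as it was with a pseudocount of 1. With a threshold of 0.5 Nfu_g_1_020192 was lost.

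Members called lower from 7 to 10 weeks were 0 in limma-voom, with DESeq2's size factors in edgeR and with no filter on low counts (beside 16.4%, 15.6% and 10.8% of tested genes). There were 2 with only the 10 libraries of these ages (beside 20.6% of tested genes). With 1 fish left out there were 0 to 1, beside 12.9% to 17.1% of tested genes. From 10 to 14 weeks DESeq2 called 1, Nfu_g_1_026130 (beside 0.0668%), where edgeR called 0. That gene passed the filter on low counts only with the younger fish included, so nothing is read from its call. Between 14 and 5 weeks DESeq2 called 2 (beside 5.21%), and 1 to 2 were called with 1 fish left out, with 2 called without 5-week fish 5 (beside 2.98%) or 14-week fish 5 (beside 3.36%). Over all tested genes, 436 were called lower between 14 and 5 weeks by edgeR, 858 by DESeq2, 152 by limma-voom and 2 with only the 10 libraries of these ages. From 5 to 7 weeks 1890 were called lower by edgeR, 1253 by limma-voom and 897 with only the 10 libraries. The log2 difference of Nfu_g_1_020192 between 14 and 5 weeks, 0.09, was -0.69 in limma-voom. With 1 fish left out it ran from -1.25 (14-week fish 5) to 0.37 (14-week fish 1), and it was -0.09 if 5-week fish 5 was dropped. The cause of these changes was not tested. Nfu_g_1_026130 was filtered out with only the libraries of 10 and 14 weeks. No paired analysis was possible because no replicate number in the labels links fish of different ages.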
